A study of Mus musculus with 9 samples.

Results

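Cathepsins are proteases, most of them of the lysosome. Here 10 of their genes were followed across primary mouse muscle cells that received TGFβ1, received ITD-1 or were left as controls. The genes were *Ctsw*, *Ctsb*, *Ctsc*, *Ctsf*, *Ctsh*, *Ctsk*, *Ctsl*, *Ctss* and *Ctsz*, which encode cysteine cathepsins, and *Ctsd*, which encodes an aspartic cathepsin. They were taken by gene symbol, and each had 1 probe set among the 24704 tested. The set was chosen by results of these same arrays, since *Ctsw* heads the comparison of TGFβ1 with control. The differences of the 10 genes in both comparisons that involve TGFβ1 are therefore a description and support nothing. No p is printed for them. Where such a difference is said to be called or to pass the threshold, this too is only a description.

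Each of the 9 arrays held RNA from 1 culture, with 3 cultures in each of 3 groups. Cells of the first group received TGFβ1 at 20 ng/ml for 24 h, and cells of the second received ITD-1 for 24 h, a small molecule that triggers loss of TGFBR2, the type II receptor for TGFβ. The labels give ITD-1 at 5 mM while the methods give the same figure in µM. The third group was the control, for which the labels name no vehicle. The methods do not say whether the controls were harvested at the same time as the treated cultures. All cultures were myoblasts derived from satellite cells of adult C57BL/6 skeletal muscle (the methods add the substrain, N), plated at 30000 cells per cm2 and differentiated for 24 h before the treatments. Satellite cells had been isolated from hindlimb muscle by retaining other cell types on a magnetic column, so the cultures are an enriched and not a cloned population. The methods describe replicates as independent experiments, while the labels do not say which animals they came from.

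Cathepsins are made as inactive precursors, carried from the Golgi to the lysosome mainly by mannose 6-phosphate receptors, and activated there by cleavage in acid. Most of them degrade proteins delivered by endocytosis and autophagy, and some are also secreted and cut extracellular matrix. Cathepsin W is unusual in the family. It is known from cytotoxic T cells and natural killer cells, where it is kept in the endoplasmic reticulum, and muscle is not among its known main sites of expression.

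Values are log2 signals after RMA, a procedure that corrects background, gives all arrays a common distribution and joins the probes of a gene. A difference of 1 on this scale is a doubling. The array medians lay between 4.09 and 4.19, and arrays correlated at 0.992 to 0.996 within groups and 0.983 to 0.995 between groups. Calls were made where the adjusted p of a limma fit to all 9 arrays was under 0.05. In a check of 5 direct TGFβ targets, 5 of 5 rose with TGFβ1 against control. Between ITD-1 and control 0 of the 5 were called, with 1 at an unadjusted p under 0.05. Their ITD-1 minus control differences were -0.41 for *Klf10*, -0.30 for *Pmepa1*, -0.17 for *Ccn2*, -0.10 for *Skil* and 0.16 for *Smad7*. The ITD-1 and control arrays overlapped for all of these genes but *Klf10*. At the threshold used, the check showed neither a block of the pathway by ITD-1 nor the absence of a block. The paper reports that ITD-1 lowered the expression of TGFβ target genes by PCR and reduced SMAD phosphorylation, though not fully. The 12 muscle markers lay between 7.50 and 12.96 in every array. A shared value in several arrays is common in this table: 49.3% of the probe sets, 3 of the 10 cathepsin genes among them, had the same value in at least 2 arrays.

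*Ctsw* was the gene with the largest rise in TGFβ1-treated cells among all 24704 tested. Its log2 signal was 7.28, 7.23 and 6.82 in the TGFβ1 arrays, 4.00, 3.75 and 4.08 in the ITD-1 arrays and 3.79, 3.96 and 3.95 in the control arrays. The 3 TGFβ1 arrays stood far above every other array, and the ITD-1 and control arrays overlapped. The means were 7.11 ± 0.25 with TGFβ1, 3.94 ± 0.17 with ITD-1 and 3.90 ± 0.10 in controls (SD, n = 3 each). The TGFβ1 minus control difference was 3.21 ± 0.13 (SE), a 9.23-fold ratio of measured signals. The ITD-1 and control signals lay under the medians of all arrays and were not shown to be above background, so the ratio is not an exact fold of transcript. Against ITD-1 the TGFβ1 arrays were higher by 3.17 ± 0.13, or 8.97-fold, and *Ctsw* was rank 6 among the rises of that comparison. ITD-1 and control differed by 0.04 (95% interval -0.26 to 0.34, adjusted p = 0.973), so the lower 2 of the 3 group levels did not differ beyond their spread. Since the control signal was not shown to be above background, a fall with ITD-1 might not be seen here. In RNA of whole cultures, fewer cells of a type and less RNA per cell cannot be told apart.

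*Ctsh* was the second cathepsin gene with a clear gap between the groups. It encodes cathepsin H, an aminopeptidase that trims peptides from their amino end. Its log2 signal was 6.21, 6.64 and 6.29 with TGFβ1, 5.84, 5.66 and 5.30 with ITD-1 and 5.68, 5.59 and 5.48 in controls. All TGFβ1 arrays lay above all arrays of both other groups. The means were 6.38 ± 0.23 with TGFβ1, 5.60 ± 0.28 with ITD-1 and 5.59 ± 0.10 in controls (SD, n = 3 each). The difference was 0.80 ± 0.15 (SE) between TGFβ1 and control, a 1.74-fold higher level at rank 270 of all rises. Between TGFβ1 and ITD-1 it was 0.78 ± 0.15, or 1.72-fold. ITD-1 and control differed by 0.01 (95% interval -0.32 to 0.35, adjusted p = 0.992).

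*Ctsd* encodes cathepsin D, the main aspartic protease of the lysosome. It gave 11.29, 11.24 and 11.23 in the TGFβ1 arrays, 10.91, 10.80 and 11.25 in the ITD-1 arrays and 10.88, 10.86 and 10.92 in the control arrays. The TGFβ1 and control arrays did not overlap, while ITD-1 replicate 3 stood with the TGFβ1 arrays and apart from its own group. TGFβ1 was above control by 0.37 ± 0.10 (SE), or 1.29-fold, and this difference did not pass the threshold. It passed in 5 of 18 other settings, among them the fit without ITD-1 replicate 3 and the fit of the TGFβ1 and control arrays alone with the replicate number as a block. ITD-1 minus control was 0.10 (95% interval -0.14 to 0.33, adjusted p = 0.886). That difference was -0.04 without ITD-1 replicate 3.

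*Ctsz* encodes cathepsin Z, also called cathepsin X, a carboxypeptidase that removes residues from the other end of a protein. Its log2 signal was 8.90, 9.03 and 8.93 with TGFβ1, 8.36, 8.43 and 8.69 with ITD-1 and 8.79, 8.79 and 8.85 in controls. The groups were ordered without overlap, TGFβ1 highest and ITD-1 lowest, and ITD-1 replicate 3 was again the highest array of its group. TGFβ1 exceeded ITD-1 by 0.46 ± 0.09 (SE), or 1.38-fold, and exceeded control by 0.14 ± 0.09. ITD-1 was below control by 0.32 (difference -0.32, 95% interval -0.52 to -0.12), which did not pass the adjusted threshold (adjusted p = 0.268). Without ITD-1 replicate 3 the difference was -0.42 and passed it (adjusted p = 0.0486).

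**Figure D1:**
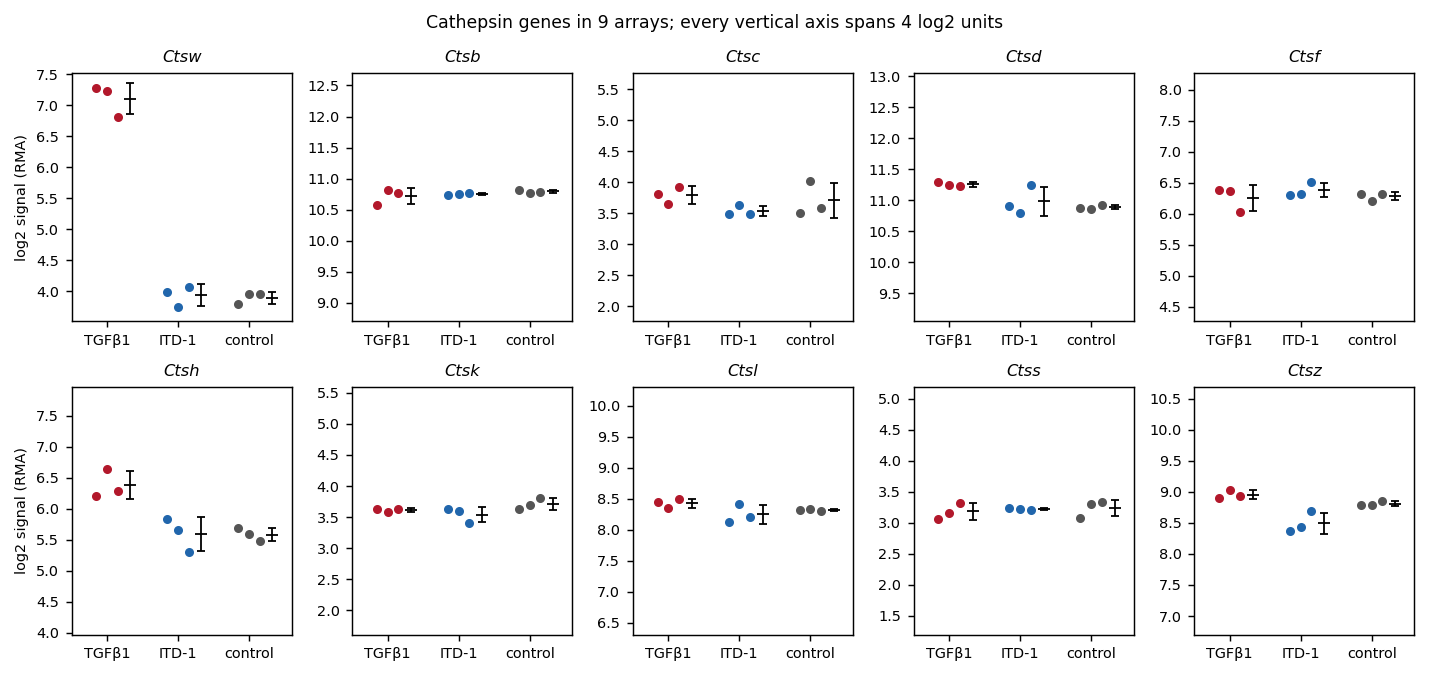
Log2 signal of the 10 cathepsin genes in 9 arrays, with 1 point per array in replicate order, and bars for mean ± SD of the 3 arrays of TGFβ1, ITD-1 and control. Every vertical axis spans the same length but starts at another level, so distances and not heights compare between panels. *Ctsw* with TGFβ1 lies between 6.82 and 7.28 and at or below 4.08 elsewhere, *Ctsh* shows a smaller gap, and the other panels show smaller differences.

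None of the other 6 cathepsin genes was called in any comparison. *Ctsb* encodes cathepsin B, which cuts both inside proteins and at their carboxyl end, and its arrays read 10.57, 10.81 and 10.76 with TGFβ1, 10.73, 10.75 and 10.76 with ITD-1 and 10.82, 10.77 and 10.79 in controls. *Ctsl* encodes the endopeptidase cathepsin L, with 8.44, 8.35 and 8.49 with TGFβ1, 8.13, 8.41 and 8.21 with ITD-1 and 8.32, 8.34 and 8.30 in controls. The group means lay between 10.72 with TGFβ1 and 10.79 in controls for *Ctsb*, and between 8.25 with ITD-1 and 8.43 with TGFβ1 for *Ctsl*. The 3 *Ctsb* arrays with ITD-1 all lay below the 3 controls, by a mean difference of -0.04 (95% interval -0.21 to 0.12, adjusted p = 0.93). The 3 *Ctsl* arrays with TGFβ1 all lay above the 3 controls, by 0.10 ± 0.08 (SE). *Ctsf*, the gene of cathepsin F, ranged between 6.02 and 6.39 with TGFβ1, 6.30 and 6.51 with ITD-1 and 6.21 and 6.33 in controls, with overlap in every comparison.

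*Ctsc*, *Ctsk* and *Ctss* had mean signals under the median of all tested probe sets and were the 3 genes that a filter at that level removed, while 7 of 10 passed. *Ctsw* passed only through its TGFβ1 arrays, since all its ITD-1 and control arrays lay under the lowest array median of 4.09. *Ctsc* encodes cathepsin C, which activates the granule proteases of cytotoxic and myeloid cells. *Ctsk* encodes cathepsin K, the collagen-degrading enzyme of osteoclasts, and *Ctss* encodes cathepsin S, which trims the invariant chain in antigen-presenting cells. *Ctsc* ranged between 3.64 and 3.92 with TGFβ1, 3.49 and 3.63 with ITD-1 and 3.51 and 4.03 in controls. *Ctsk* ranged between 3.57 and 3.63 with TGFβ1, 3.40 and 3.63 with ITD-1 and 3.63 and 3.81 in controls, and 4 of its 9 arrays carried the same value. *Ctss* ranged between 3.06 and 3.33 with TGFβ1, 3.21 and 3.24 with ITD-1 and 3.08 and 3.33 in controls. The groups overlapped for all of these genes apart from *Ctsc* between TGFβ1 and ITD-1, where the difference of 0.26 ± 0.13 (SE) was not called.

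Counted over the set, 2 of 10 cathepsin genes were called higher with TGFβ1 than in controls, *Ctsw* and *Ctsh*, and 0 were called lower. Over all tested genes 3.65% were called higher and 2.78% lower. Since the set was chosen by this comparison, nothing is read from its count. The median difference of the 10 genes was 0.09, against -0.01 over all genes, with 6 positive and 4 negative. For 5 of them, *Ctsw*, *Ctsd*, *Ctsh*, *Ctsl* and *Ctsz*, the TGFβ1 arrays lay wholly above the controls, where 20.5% of all genes had groups without overlap in either direction.

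Between ITD-1 and control, 0 of 10 cathepsin genes were called higher and 0 lower by limma, against 0.0607% and 0.575% of all genes. At an unadjusted p under 0.05 the count was 1, *Ctsz*, and it was 0 with the methods' analysis of variance after adjustment. The median difference was -0.03, against 0.01 over all genes. The arrays did not overlap for 2 of 10, *Ctsb* and *Ctsz*, against 11.1% of all genes. Outside *Ctsz* the differences ran between -0.17 for *Ctsc* and 0.10 for *Ctsd*, and their adjusted p between 0.662 and 0.992.

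TGFβ1 and ITD-1 were also set against each other, a comparison that shares its TGFβ1 arrays and its ITD-1 arrays with the first and second. Here 3 of 10 genes were called higher with TGFβ1, *Ctsw*, *Ctsh* and *Ctsz*, and 0 lower, where 5.92% of all genes were called higher and 4.26% lower. The arrays did not overlap for 4, the same 3 and *Ctsc*, against 23.4% of all genes. The median difference was 0.22, against -0.03 over all genes. Nothing is read from these counts either, for the same reason.

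**Figure D2:**
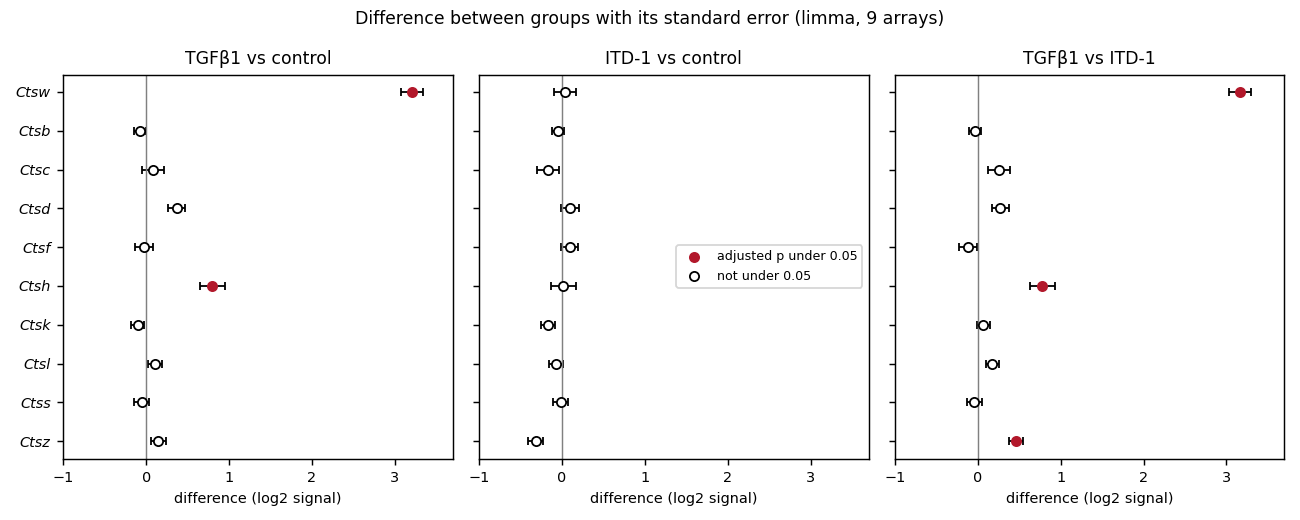
Difference in log2 signal of each cathepsin gene for TGFβ1 against control, ITD-1 against control and TGFβ1 against ITD-1, as points with bars of 1 standard error from the limma fit of 9 arrays. Filled points passed the adjusted threshold, 2 in the first panel, 0 in the second and 3 in the third, and *Ctsw* lies at 3.21, 0.04 and 3.17.

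None of the measured genes beside *Ctsw* was called in any comparison. Of the 4 nearest genes in the RefSeq gene table, 3 were measured, and the gene next to *Ctsw* on one side was not analysed here. *Fibp*, which encodes an intracellular partner of acidic fibroblast growth factor, has an annotated span that overlaps that of *Ctsw*. It read 7.76, 7.82 and 7.53 with TGFβ1, 7.76 in all 3 ITD-1 arrays and 7.76, 7.76 and 7.70 in controls, with 5 arrays at the same value. Its TGFβ1 minus control difference was -0.04 (adjusted p = 0.898). For *Ccdc85b*, which encodes a small coiled-coil protein, the difference was 0.13 (adjusted p = 0.721), and for *Mus81*, a DNA-cutting enzyme of recombination repair, 0.04 (adjusted p = 0.876).

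Predicted genes and small RNAs aside, the genes most like *Ctsw* over the 9 arrays were *Anxa8* (r = 0.993), *Bhlhe41* (r = 0.991), *Cnksr2* (r = 0.99), *Cilp* (r = 0.989) and *Adgrg1* (r = 0.989). The correlations are Pearson's and are given as a description. They are set largely by the gap between the TGFβ1 arrays and all others, which every one of these genes shared. *Anxa8*, the gene of annexin A8, a protein that binds membranes in the presence of calcium, read 6.27, 6.58 and 5.80 with TGFβ1, 3.26, 3.34 and 3.42 with ITD-1 and 3.50, 3.44 and 3.55 in controls. Its TGFβ1 minus control difference was 2.72 ± 0.16 (SE), and that of *Adgrg1*, the gene of an adhesion G protein-coupled receptor, was 2.39 ± 0.13 (SE). Both genes were selected on this pattern, so no p is given. Within groups, the deviations of *Ctsw* and *Bhlhe41* from their group means correlated at 0.902, those of *Ctsw* and *Adgrg1* at 0.602. The genes were picked for their correlation with *Ctsw* over the same arrays, so these values are not independent of that choice. Among the cathepsin genes, *Ctsh* was the most like *Ctsw* (r = 0.895), *Ctsd* came next (r = 0.812) and *Ctsb* was the least alike (r = -0.414).

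**Figure D3:**
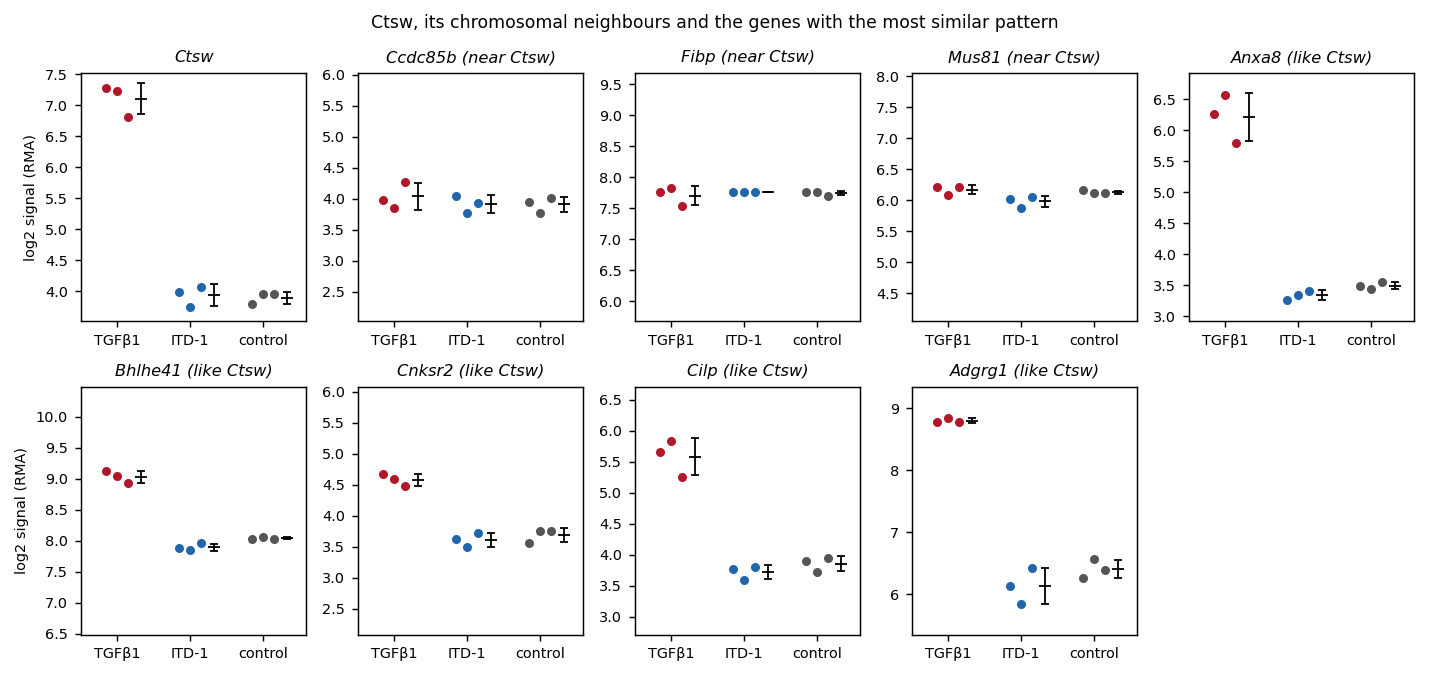
Log2 signal of *Ctsw*, of 3 genes near it on the chromosome and of the 5 genes most like it, with 1 point per array and bars for mean ± SD of 3 arrays in the TGFβ1, ITD-1 and control groups. The axes span the same length from different starts. The neighbours show no step with TGFβ1, with *Fibp* at 7.76 in all ITD-1 arrays, while *Anxa8*, *Bhlhe41*, *Cnksr2*, *Cilp* and *Adgrg1* share the TGFβ1 step.

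Since *Ctsw* is known from cytotoxic lymphocytes, the other markers of those cells were read beside it. Over all genes 3.65% were called higher with TGFβ1 than in controls and 2.78% lower. Of 20 markers, 1 rose with TGFβ1 against control and 0 fell. Their summed linear signal was 220 to 249 over the TGFβ1 arrays, 235 to 244 over the ITD-1 arrays and 228 to 252 over the control arrays, and no marker exceeded 4.43 on the log2 scale in any array. The gene that rose was *Cd3g*, a chain of the T cell receptor complex, at 3.58, 4.16 and 3.84 with TGFβ1 and 3.25, 3.25 and 3.40 in controls, a difference of 0.56 ± 0.13 (SE, adjusted p = 0.037). That call was lost with the replicate block in these groups alone (adjusted p = 0.074) and in 7 of 9 fits without 1 array, among them those without any 1 control array, TGFβ1 replicate 2 or 3, or ITD-1 replicate 1 or 2. The median difference of the list was -0.07. The part of such cells in the *Ctsw* difference was not tested.

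Macrophages also express many cathepsins. The counts below for TGFβ1 against control stand beside 3.65% of all genes called higher and 2.78% lower. Of 15 measured macrophage markers 1 rose with TGFβ1, *Laptm5*, a lysosomal membrane protein of blood cells (difference 0.88 ± 0.11 (SE), adjusted p = 0.000979), and 1 fell, *Itgam*, an integrin of myeloid cells (difference -0.74 ± 0.13 (SE), adjusted p = 0.0085). The summed signal was 234 to 257 with TGFβ1, 242 to 264 with ITD-1 and 238 to 243 in controls. Of 11 measured fibroblast markers 2 rose with TGFβ1 against control, *Col1a2*, a collagen chain, and *Gsn*, an actin-severing protein, and 9 were not called. Between ITD-1 and control 0 of the 11 were called by limma, with 2 at an unadjusted p under 0.05. The summed signal of the list was 673 to 768 with TGFβ1, 484 to 488 with ITD-1 and 554 to 561 in controls, without overlap. *Gsn* had the highest signal of the list in every array and weighs most in this sum. Its means were 8.90 with TGFβ1, 8.26 with ITD-1 and 8.51 in controls. The median signals of the list were 4.06, 3.87 and 3.95 in the same order. Whether the sum follows the number of fibroblasts was not tested. The part of these cells in the cathepsin differences was not tested. Of 7 endothelial markers 0 were called by limma, with 0 at an unadjusted p under 0.05. Of 12 muscle markers *Ckm*, the muscle creatine kinase, rose with TGFβ1 by 0.93 ± 0.10 (SE, adjusted p = 0.00051) and *Myh3*, the embryonic myosin heavy chain, was lower (difference -0.31 ± 0.07 (SE), adjusted p = 0.0224). The *Myh3* call was lost with the replicate block in these groups alone (adjusted p = 0.0523) and without any 1 control array or TGFβ1 replicate 1 or 2.

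Of the 15 further cathepsins and cathepsin-like genes on the array, many of them rodent enzymes of the placenta, 1 rose with TGFβ1 against control and 0 fell. Over all genes 3.65% were called higher and 2.78% lower. The gene that rose was *Ctsa*, the gene of a serine carboxypeptidase that also stabilises lysosomal glycosidases. Its log2 signal was 9.50, 9.55 and 9.41 with TGFβ1, 8.84, 8.84 and 9.15 with ITD-1 and 9.11, 9.08 and 9.14 in controls. The TGFβ1 arrays lay above all others, by 0.38 ± 0.09 against control (SE, adjusted p = 0.037) and 0.54 ± 0.09 against ITD-1 (SE, adjusted p = 0.00364). ITD-1 replicate 3 again stood above its group. The call against control was lost without any 1 control or TGFβ1 array. *Ctse*, the gene of an aspartic cathepsin of the stomach and immune cells, was lower with TGFβ1 than with ITD-1 (difference -0.27 ± 0.07 (SE), adjusted p = 0.0349), a call lost in 6 of 9 fits without 1 array, those without control replicate 1 or 2, TGFβ1 replicate 1 or 2, or ITD-1 replicate 2 or 3. Between ITD-1 and control 0 of the 15 were called by limma, with 0 at an unadjusted p under 0.05.

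Few calls were made among the inhibitors that hold cathepsins in check. With TGFβ1 against control 3.65% of all genes were called higher and 2.78% lower, and against ITD-1 5.92% and 4.26%. Of 18 measured cystatins, stefins, kininogens and related inhibitors, 0 were called between TGFβ1 and control by limma (1 at an unadjusted p under 0.05, 0 with the methods' analysis of variance after adjustment). *Ctla2a*, an inhibitor that resembles the propeptide of cathepsin L, was the 1 gene called between TGFβ1 and ITD-1, at 3.93, 3.60 and 3.37 with TGFβ1 and 3.15, 2.88 and 2.98 with ITD-1 (difference 0.63 ± 0.15 (SE), adjusted p = 0.0287). Its call was lost without TGFβ1 replicate 1 or 2 and without ITD-1 replicate 2 or 3. Between ITD-1 and control 0 of 18 were called (2 at an unadjusted p under 0.05).

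Of 13 genes that carry cathepsins to the lysosome or activate them, 1 rose and 2 fell with TGFβ1 against control, and 10 were not called. In that comparison 3.65% of all genes were called higher and 2.78% lower. *Lrp1*, an endocytic receptor that takes up secreted cathepsin D, rose by 0.78 ± 0.08 (SE, adjusted p = 0.000367). *Sort1*, a sorting receptor of the Golgi (difference -0.69 ± 0.07 (SE), adjusted p = 0.000405), and *Gga2*, an adaptor that loads sorting receptors into Golgi vesicles (difference -0.79 ± 0.07 (SE), adjusted p = 0.000201), both fell. *Gga2* read 8.09, 8.08 and 8.12 with TGFβ1, 9.07, 8.82 and 8.97 with ITD-1 and 8.93, 8.87 and 8.85 in controls. The TGFβ1 arrays of *Gga2* lay below all others. Over all genes 5.92% were higher with TGFβ1 than with ITD-1 and 4.26% lower. Most genes of this list had mean signals at or above the median level, so the shares of neither comparison are a matched background. Between TGFβ1 and ITD-1, 3 of the list were higher and 3 lower with TGFβ1. *Lrp1*, *Sort1* and *Gga2* were among them, in the same directions.

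Of 31 measured lysosomal hydrolases 3 rose and 0 fell with TGFβ1 against control. These were *Prcp*, a serine carboxypeptidase, which rose by 0.69 ± 0.11 (SE, adjusted p = 0.00559), *Galns*, a sulfatase, by 0.43 ± 0.11 (SE, adjusted p = 0.0484), and *Gusb*, which removes glucuronic acid from glycosaminoglycans, by 0.31 ± 0.08 (SE, adjusted p = 0.041). In the fit of these groups alone with the replicate number as a block, *Prcp* (adjusted p = 0.0641) and *Gusb* (adjusted p = 0.0909) were not called and 1 hydrolase was called lower. Of the 9 fits without 1 array, the *Gusb* call was lost in 8, all but that without control replicate 3, and the *Galns* call in 7, all but those without ITD-1 replicate 2 or 3. Of 27 measured genes of the lysosomal membrane, its acidification and its biogenesis 7 rose and 0 fell, and 20 were not called. Those that rose included *Slc17a5*, a sialic acid exporter, by 0.69 ± 0.08 (SE, adjusted p = 0.000561), *Npc2*, a cholesterol carrier, by 0.50 ± 0.09 (SE, adjusted p = 0.00697), and *Atp6ap2*, an accessory subunit of the proton pump, by 0.39 ± 0.08 (SE, adjusted p = 0.0129), whose call was lost without TGFβ1 replicate 2 or control replicate 1. The median difference was 0.15 for the hydrolases and 0.14 for the membrane list, and 0.09 for the 10 cathepsin genes. Over all genes 3.65% rose and 2.78% fell, but most genes of both lists passed the filter at the median level. Of the 12352 probe sets that passed it, 1035 were called higher and 805 lower against control. With that filter 4 hydrolases and 7 genes of the membrane list were called higher and 0 lower. The share over all genes is therefore not a matched background for these lists. Between TGFβ1 and ITD-1, 8 of the 31 and 8 of the 27 were higher with TGFβ1 and 0 were lower. Over all genes 5.92% were higher and 4.26% lower in that comparison. Of the 12352 probe sets that passed the filter, 1633 were higher and 1191 lower. The number called ran between 2 and 13 for the hydrolases and between 2 and 9 for the membrane list over the alternatives. Between ITD-1 and control 0 of these 31 and 0 of these 27 were called by limma, with 4 and 8 at an unadjusted p under 0.05.

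**Figure D4:**
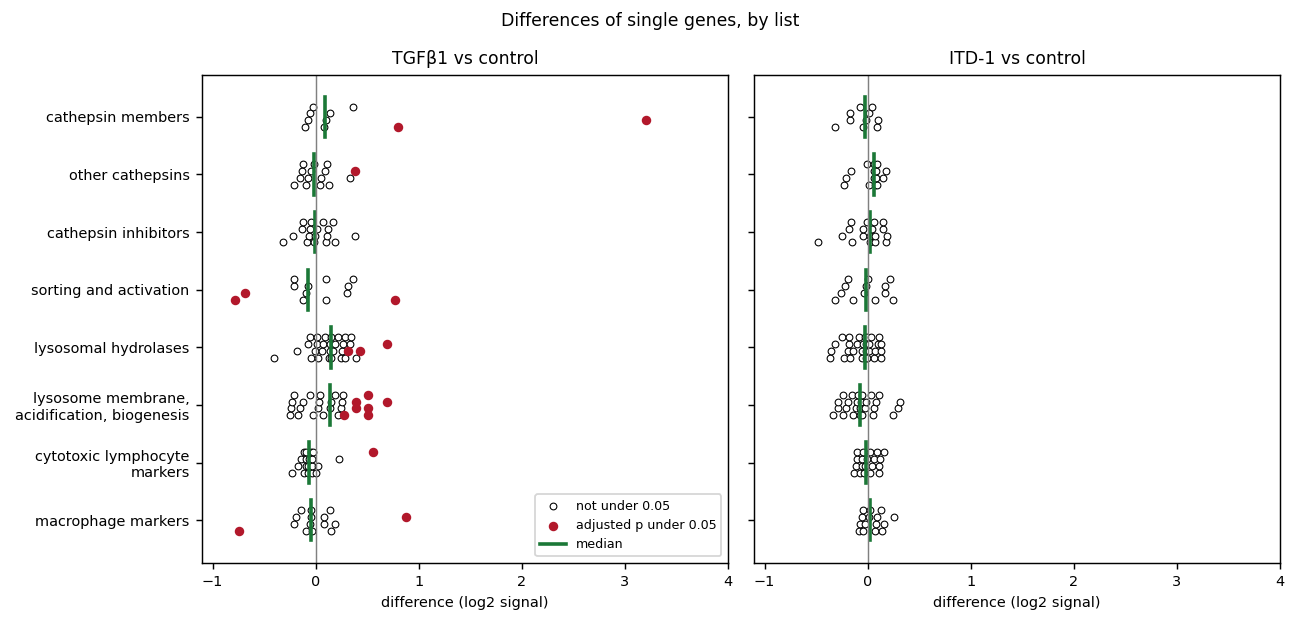
Difference in log2 signal of every measured gene in 8 lists for TGFβ1 against control and ITD-1 against control, 1 point per gene. Filled points passed the adjusted threshold and the vertical bars are list medians, 0.09 for the cathepsin genes and 0.15 for lysosomal hydrolases with TGFβ1. *Ctsw* is the lone point beyond 3.

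The promoters of 7 of the 10 cathepsin genes were in the RefSeq table for GRCm38.p6, and those of *Ctsw*, *Ctsb* and *Ctsh* were not used here. The 250 bases before each gene start were searched on both strands for CACGTG, the core of the element bound by the lysosomal regulators TFEB and TFE3, and for CAGAC, the SMAD-binding element, which reads GTCTG on the opposite strand. CACGTG was present in 3 of 7, *Ctsd*, *Ctsf* and *Ctsl*, against 6.02% of 32851 promoters of the same length. CAGAC was present in 4 of 7, *Ctsf*, *Ctsk*, *Ctsl* and *Ctsz*, against 42.2%. The windows of *Ctsd* and *Ctsz* are printed because each held 2 copies of a motif and because these genes had groups without overlap. They lie at chr7:142387828-142388077 and chr2:174439040-174439289, both on the minus strand, and capitals mark CACGTG in *Ctsd* and the other-strand form of CAGAC in *Ctsz*.
Ctsd: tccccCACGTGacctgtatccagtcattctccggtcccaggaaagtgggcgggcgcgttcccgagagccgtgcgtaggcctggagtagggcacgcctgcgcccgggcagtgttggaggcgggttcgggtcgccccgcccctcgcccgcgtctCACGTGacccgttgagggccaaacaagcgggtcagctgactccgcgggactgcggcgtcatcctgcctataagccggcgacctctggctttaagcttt
Ctsz: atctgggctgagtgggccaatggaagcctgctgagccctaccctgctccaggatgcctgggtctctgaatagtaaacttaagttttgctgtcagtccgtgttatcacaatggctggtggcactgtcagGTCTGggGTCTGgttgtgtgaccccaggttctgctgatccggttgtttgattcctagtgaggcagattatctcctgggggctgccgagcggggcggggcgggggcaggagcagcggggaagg
In *Ctsd* the copies begin 245 and 98 bases before the gene start, and 0.429% of all promoters held at least 2. In *Ctsz* they begin 122 and 115 bases before it, and 11.7% of all promoters held at least 2. A match describes the letters of the window and is not evidence of binding. The genes of TFEB and TFE3, picked after their values were seen, were not called between TGFβ1 and control (difference 0.25 ± 0.09 (SE), adjusted p = 0.167 for *Tfeb* and 0.26 ± 0.12 (SE), adjusted p = 0.344 for *Tfe3*). Against ITD-1, *Tfe3* was higher with TGFβ1 (difference 0.55 ± 0.12 (SE), adjusted p = 0.0177), a call lost in 5 of 9 fits without 1 array, those without any 1 TGFβ1 array or ITD-1 replicate 1 or 2, and *Tfeb* was not called (0.19 ± 0.09 (SE), adjusted p = 0.236). Their relatives *Mitf* and *Tfec* differed by -0.24 and -0.15 between TGFβ1 and ITD-1 and were not called either.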

How the data were processed

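Processing covered 9 Affymetrix MouseGene 2.0 ST arrays, 3 per group. The authors normalized them with RMA in Bioconductor with a custom CDF, and the deposited values are log2 signals, 1 column per array. Of 25428 probe sets, 723 had no symbol and 1 repeated another's, which left 24704. The files name no genome build, and the custom CDF's probe positions were not used here. The authors' ratios and p-values were not used.

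Groups were compared with limma 3.58.1 (R 4.3.3, lmFit and eBayes, all 9 arrays, two-sided, Benjamini-Hochberg over all tested probe sets). The methods' criteria, an unadjusted p under 0.05 in a one-way analysis of variance and at least 1.5-fold, were an alternative. The steps were tested on simulated data. The number of arrays limits the precision.

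The cathepsin genes, the 11 other lists, the rules and the tests were chosen with earlier results of these data known. All 10 cathepsin genes are described. From each other list up to 3 called genes with the smallest p per comparison could be named, plus the 2 genes on either side of *Ctsw* and the 5 most correlated with it, without predicted genes and small RNAs.

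Pairing was checked by correlating residuals of arrays with the same replicate number. The 3 correlations of TGFβ1 with control arrays were 0.138, 0.155 and 0.305, all over 0.1, which by the rule used treats these arrays as paired, although the labels name no pairs. Those of ITD-1 with control were -0.0707 to 0.146 and those of TGFβ1 with ITD-1 -0.117 to 0.0869, which gave no sign of pairing. Control and TGFβ1 arrays of different numbers gave -0.217 to 0.102. The main fit of every comparison was unpaired, so its calls do not use the pairing, and the block was run as an alternative. The other alternatives were centring, cyclic loess, a filter at the median level, other eBayes settings, fits of 2 groups, array weights, a replicate block and leaving out each array.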

Additional observations from a re-analysis of the deposited data

How the results depend on the processing

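The count of cathepsin genes called was 2 for TGFβ1 against control, 0 for ITD-1 against control and 3 for TGFβ1 against ITD-1, and 19 alternatives were run. For TGFβ1 against control the count was 1 when the analysis of variance of the methods was used and adjusted, where *Ctsh* was not called, and 2 to 3 when each array was left out in turn, the 3 being without ITD-1 replicate 3. With the replicate block it was 2 in the fit of all arrays and 3 in the fit of the paired groups alone, where *Ctsd* joined. For ITD-1 against control it was 0 to 1 when arrays were left out, the 1 being *Ctsz* without ITD-1 replicate 3, and 0 in all other settings. For TGFβ1 against ITD-1 it was 3 to 4 when arrays were left out, with *Ctsd* joining without ITD-1 replicate 3, and 1 with the replicate block in the fit of these groups alone, where *Ctsh* and *Ctsz* were not called. The cause was not tested. Among the cathepsin genes no called difference changed sign. *Ctsw* stayed between 3.12 and 3.35 above control and *Ctsh* between 0.67 and 0.88. The single call among further cathepsins for TGFβ1 against control, *Ctsa*, was lost in 10 of 19 alternatives, and that of *Cd3g* in 11 of 18. For TGFβ1 against ITD-1 the further cathepsins gave 0 to 3 calls, the inhibitors 0 to 2, the hydrolases 2 to 13 and the membrane list 2 to 9. Against control the hydrolase calls ran between 1 and 6, with 1 lower call in the fits of these groups alone, with and without the block, and without ITD-1 replicate 3, and those of the membrane list between 1 and 7. Over all genes, 902 were higher and 687 lower with TGFβ1 against control, and 509 and 316 by the methods' selection, and leaving out an array gave 619 to 990 higher and 434 to 736 lower. The 15 higher and 142 lower calls of ITD-1 against control became 1 and 17 with the methods' analysis of variance after adjustment. They were 3 and 60 in the fit of these groups alone, 11 and 91 with the replicate block and 0 and 0 with the block in these groups alone. Leaving out an array gave 0 to 13 and 37 to 136. The counts were 21 and 135 by the methods' selection, 21 and 145 with cyclic loess, 25 and 174 with the filter and 30 and 180 with array weights. The 1462 higher and 1052 lower calls of TGFβ1 against ITD-1 became 862 and 454 by the methods' selection and 924 and 581 with the block in these groups alone. They were 1776 and 1289 with array weights.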
